A study of Mus musculus with 18 samples.

Results

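The nuclear-encoded respiratory chain genes are 81 of the 16925 rows of the annotated expression matrix, chosen by symbol alone: the NDUF subunit genes, SDHA to SDHD, and the symbols that begin with UQCR, COX4 to COX8 or ATP5. They comprise 36 genes of complex I, 4 of complex II, 8 of complex III, 16 of complex IV (Ndufa4, a complex IV subunit despite its name, among them) and 17 of complex V. Transcribed in the nucleus and translated in the cytosol, these subunits are imported into mitochondria, where they join subunits encoded by mitochondrial DNA. Complexes I to IV pass electrons from NADH and succinate to oxygen and build a proton gradient, which complex V, the ATP synthase, uses to make ATP. Neurons depend heavily on this supply of ATP.

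RNA came from the peritumoral area of the brain of wild-type mice, resected 10 days after injection of 40000 cells of a brain-metastatic tumour line. Mice given B16-F10-BrM4 cells form the melanoma group, those given EO771-BrM3 cells the breast group and those given 482N1 cells the lung group, with 6 brains and 6 libraries in each. Poly(A)+ RNA was sequenced with a strand-specific kit, and the 18 libraries held 7366250 to 14533877 counted reads. All 3 groups carried tumours and none was tumour-free brain, so each difference is between models, and each model is 1 cell line. In these bulk samples fewer cells of a type and less RNA per cell cannot be told apart.

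Markers of brain cells were found in all 3 models. The 12 neuron genes summed to 4357 to 8268 CPM (counts scaled to a common library size) in melanoma libraries, 3663 to 5537 in breast libraries and 5394 to 7048 in lung libraries, with Tubb3 listed at 0 throughout. Tumour-lineage RNA was present too: the 8 melanocyte-lineage genes summed to 3822 to 23485 CPM in melanoma libraries, against 38.2 to 75.3 in breast and 43.6 to 57.5 in lung libraries. The 7 epithelial genes summed to 309 to 1318 CPM in lung libraries, 66.3 to 167 in breast and 4.94 to 5.78 in melanoma libraries. The part of epithelial RNA in the lung and breast values below was not tested. Melanoma replicates 3, 1 and 2 had the highest melanocyte sums, at 23485, 15422 and 13831 CPM, and the lowest neuron sums of that model.

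Most of these transcripts are short, which bears on how well libraries can be compared. The median transcript length was 645 bases, and 70 of the 80 genes with a length were under 1.5 kb. Melanoma replicate 3 and breast replicates 18 and 19 were poor in long transcripts compared with the other libraries. Slopes were taken on log2 CPM minus each gene's mean over the 18 libraries, so they are relative to the average of these libraries. Per doubling of transcript length, this relative level fell by 0.260 in melanoma 3, 0.265 in breast 18 and 0.209 in breast 19. The slopes of the other 15 libraries ran from -0.112 to 0.173. The same 3 libraries gave the largest shares of reads to respiratory chain genes, 2.48% in melanoma 3, 1.71% in breast 18 and 1.75% in breast 19, against 1.11% to 1.63% in the other 15. The comparisons below use all 18 libraries with no correction for length unless another fit is named, and the main values are also given without the 3.

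**Figure D1:**
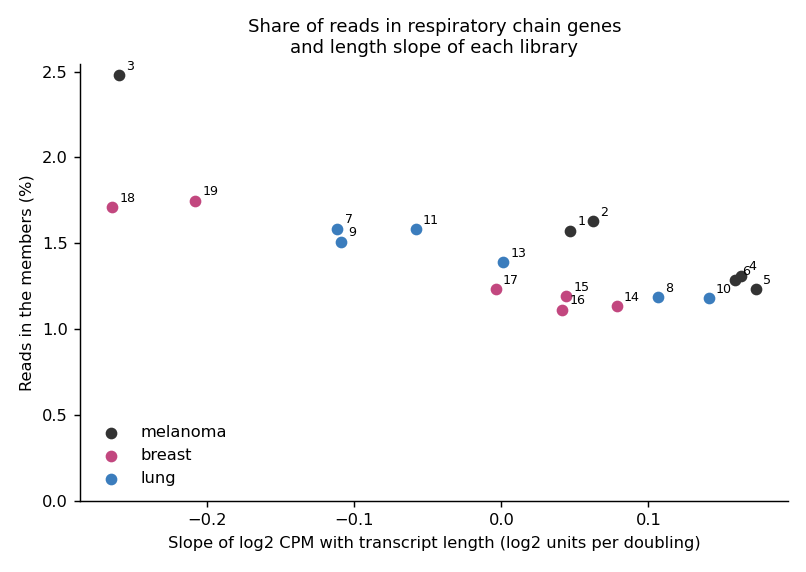
Percentage of reads in the 81 genes (y axis) against each library's slope of log2 CPM with transcript length (x axis), 1 point per library with its replicate number. Slopes are relative to each gene's mean over the 18 libraries. Melanoma 3, breast 18 and breast 19 stand at the left with negative slopes and the highest shares.

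Differences were tested over 17174 genes with edgeR's quasi-likelihood test, and a gene was called at a Benjamini-Hochberg adjusted p below 0.05. Of the 81 genes, 78 could be tested. Cox4i1, the widely expressed isoform of complex IV subunit 4, and Ndufa13, an accessory subunit of complex I, are listed at 0 in all 18 libraries, and Atp5mgl had 2 reads in all. In 14 of the genes over 20% of the 50-base windows of the transcript also occur in other genes, so their levels are uncertain. Cox7c, at 3.99 to 12.1 CPM, and Atp5mc2, with 727 reads in the 18 libraries, are 2 of them.

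Per kilobase of transcript, the ATP synthase genes had the highest median level of the 5 complexes and the complex I genes the lowest. Over the genes tested the medians were 296 CPM per kb in complex V, 197 in complex IV, 197 in complex III, 160 in complex II and 139 in complex I. Atp5f1b, the catalytic beta subunit of ATP synthase, led with 926 CPM per kb, followed by Ndufa4 with 735 and Cox6b1 with 691. At the other end, by the median of the 18 libraries, the complex IV isoforms known from heart, muscle, lung or testis stood below 8 CPM per kb. Cox6a2 had 7.47, Cox7a1 7.26, Cox6b2 5.34, Cox4i2 3.10 and Cox7b2 0.884. By model, the Cox7b2 median was 32.0 CPM per kb in breast, 0.627 in melanoma and 0.494 in lung. Complexes III and IV had nearly the same median, and from 0.884 to 735 CPM per kb the range within complex IV was far wider than the distance between complexes.

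With all 18 libraries the summed level of each complex overlapped between the 3 models, except that complex II in melanoma lay above both others. Complex II summed to 1004 to 1606 CPM in melanoma libraries, against 794 to 952 in breast and 826 to 937 in lung libraries. Complex I ran from 3426 to 6625 CPM in melanoma, from 3140 to 5268 in breast and from 3242 to 4697 in lung. In all 5 complexes the top melanoma value was replicate 3, and the next melanoma library of complex I had 4089 CPM. Without replicate 3 the melanoma sums of complex II were 1004 to 1233 CPM, still above both others. Melanoma replicates 1, 2 and 3, the richest in melanocyte-lineage RNA, had 1217, 1233 and 1606 CPM of complex II, and its part in these sums was not tested. Melanoma also lay above breast in complexes IV and V once the 3 libraries poor in long transcripts were left out. Breast 18 and 19, which had the highest breast sums of both complexes, were among those left out. Complex IV then summed to 1849 to 2301 CPM in melanoma and 1606 to 1760 in breast, and complex V to 4888 to 6572 in melanoma and 4464 to 4870 in breast. Both overlapped the lung sums, which were 1720 to 2682 CPM in complex IV and 4564 to 5902 in complex V.

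**Figure D2:**
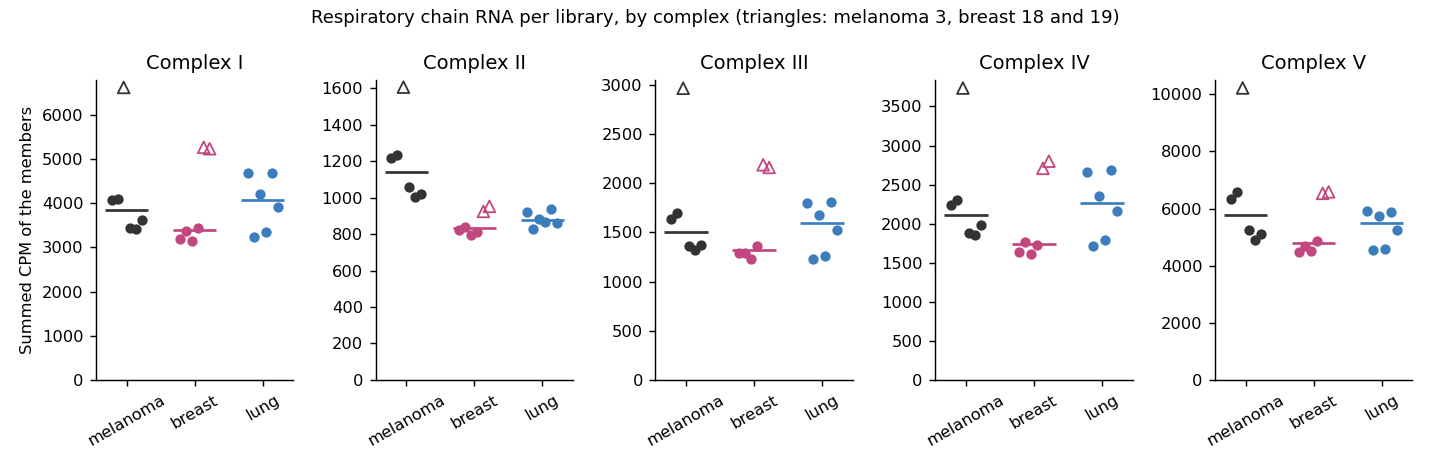
Summed CPM of the genes of each complex (y axes, from 0) in melanoma, breast and lung libraries, 1 point per library, with the median as a line and triangles for melanoma 3, breast 18 and breast 19. Complex II is the panel in which all melanoma points, 1004 to 1606 CPM, lie above the others; the triangles top the melanoma and breast groups in every panel.

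Few of the genes differed between models when all 18 libraries were used. Melanoma over lung called 4 of 78, all higher: Ndufs1, Sdhb, Atp5f1a and Atp5f1b. Of all 17174 genes, 23.2% were called and 8.51% were higher. Breast over lung called 1, Cox7b2, which was higher, where 18.3% of all genes were called and 11.2% were higher. Melanoma over breast called 7, where 28.9% of all genes were called and 9.76% were higher. Of the 7, Ndufs1, Ndufa10, Ndufv3, Sdha, Sdhb and Atp5f1a were higher and Cox7b2 lower. The median log2 fold change of the 78 genes was 0.07 for melanoma over lung, -0.05 for breast over lung and 0.13 for melanoma over breast, where that of all genes was 0.02, -0.02 and 0.04. None of the 3 medians kept its sign when single libraries were left out. Without melanoma 3 they were -0.11 for melanoma over lung and -0.03 for melanoma over breast, and breast over lung was 0.01 without lung 7 and 0.01 without breast 16. All these comparisons share libraries, since each model enters 2 of them.

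Without melanoma 3, breast 18 and breast 19, many more genes were called, and breast stood lower. Breast 18 and 19 had the highest breast value for 39 and 37 of the 78 genes. Leaving them out therefore lowered most breast values by itself. Lung 7 and 11, each the highest lung library for 33 genes, stayed in. Breast over lung then called 42 of 78, of which 41 were lower, where 25.0% of all genes were called and 13.3% were lower. Of all genes with a transcript under 1.5 kb, 17.3% were called lower in breast. The median log2 fold change of the 78 genes was -0.36, against -0.06 over all genes and -0.14 over those short genes. The slopes of lung replicates 7, 8, 9, 10, 11 and 13 were -0.112, 0.107, -0.109, 0.141, -0.058 and 0.001, and those of breast 14 to 17 ran from -0.004 to 0.078. With the 18 libraries and the length trend of each library removed, breast over lung called 7, with 5 lower, where 22.6% of all genes were called and 9.10% were lower. With the slope as a covariate it called 35, with 33 lower, where 32.9% of all genes were called and 14.4% were lower. The medians of the 78 genes were then -0.13 and -0.17. With the trend removed melanoma over lung called 14, where 26.1% of all genes were called, and melanoma over breast 35, where 33.8% were. With the covariate they called 37 and 59, where 38.6% and 41.6% of all genes were called. Without the 3 libraries and with no correction, melanoma over breast called 26, with 25 higher, where 34.2% of all genes were called and 10.9% of those under 1.5 kb were higher, and the median was 0.26, against 0.09 over all genes. Melanoma over lung called 12 without them, with 5 higher and 7 lower and a median of -0.11, where 33.6% of all genes were called and, of those under 1.5 kb, 6.81% were higher and 24.3% lower. All the genes called with 18 libraries were called without the 3. The neuron sums of breast replicates 14 to 17 were 5537, 5503, 4821 and 5011 CPM, 2 of them below the lung range of 5394 to 7048 and 2 at its low end, and their part in the lower breast values was not tested.

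**Figure D3:**
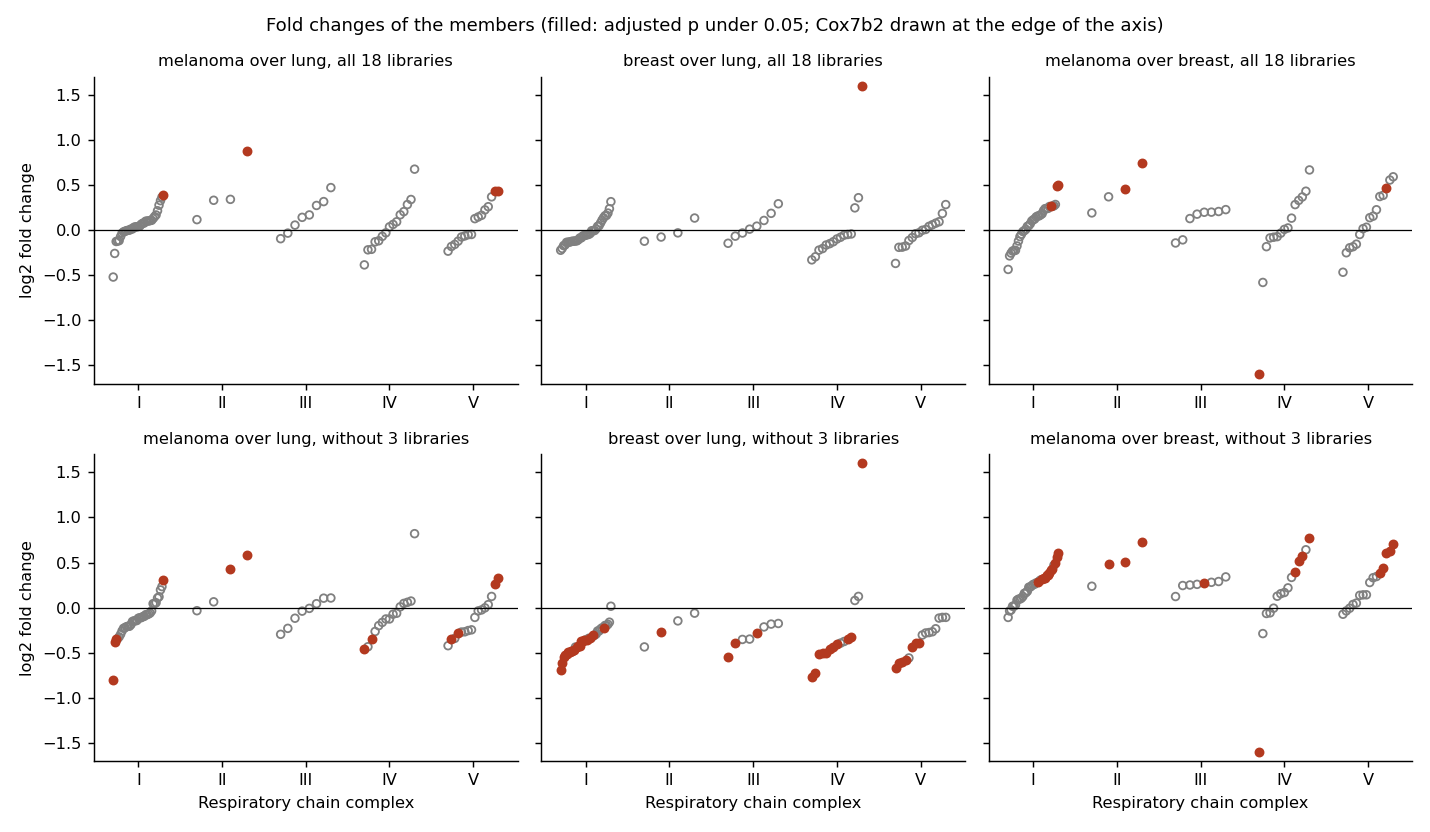
log2 fold change (y axis) of each tested gene, by complex (x axis), for 3 comparisons, with all 18 libraries above and without melanoma 3, breast 18 and breast 19 below; filled points passed adjusted p below 0.05. In the lower middle panel 41 filled points lie below 0; Cox7b2, at 6.02 and -5.34 in the upper panels, is drawn at the edge of the axis.

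Complex I takes electrons from NADH. Its gene Ndufs1 encodes the largest core subunit, which carries iron-sulfur clusters. Ndufs1 (ENSMUSG00000025968.17, chromosome 1) had 213, 233 and 325 CPM as lowest, median and highest value in melanoma, 168, 178 and 187 in breast and 179, 191 and 201 in lung. Every melanoma library was above every breast and lung library. The log2 fold change was 0.39 ± 0.10 (SE) for melanoma over lung, with edgeR adjusted p = 0.00595, and 0.49 ± 0.10 for melanoma over breast, with adjusted p = 0.000657. It was 0.31 and 0.49 without the 3 libraries.

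Another core gene of complex I, Ndufv1, which binds NADH and flavin, averaged 229 ± 40.6 CPM in melanoma, 222 ± 37.6 in breast and 222 ± 19.8 in lung (SD, n = 6 each), and the groups overlapped. Among the 7 core genes tested, Ndufs1 was the only one called in the uncorrected fit of 18 libraries. Of the 28 accessory genes, Ndufv3 and Ndufa10 were called, both in melanoma over breast. Ndufv3, an accessory subunit beside the NADH-binding site, averaged 105 ± 32.2 CPM in melanoma and 74.5 ± 16.1 in breast, a log2 fold change of 0.50 ± 0.18 (edgeR adjusted p = 0.0413). Ndufa10 averaged 185 ± 18.7 CPM in melanoma and 154 ± 12.7 in breast, a log2 fold change of 0.27 ± 0.09 (edgeR adjusted p = 0.0295). Ndufv3 had 0.61 ± 0.13 (edgeR adjusted p = 0.002) and Ndufa10 0.33 ± 0.08 (edgeR adjusted p = 0.00402) without the 3 libraries. The Ndufv3 call was lost without melanoma 1, 2 or 3 or breast 14, 15, 16 or 17, and the Ndufa10 call without melanoma 2 or breast 14, 16 or 17.

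Ndufa7 showed the largest fall of the 78 genes for melanoma over lung. It had 66.4, 77.6 and 176 CPM as lowest, median and highest value in melanoma and 82.9, 137 and 183 in lung. The highest melanoma value was replicate 3, and the other 5 lay at 66.4 to 85.7 CPM. The log2 fold change was -0.52 ± 0.31 with edgeR adjusted p = 0.276 in 18 libraries and -0.80 ± 0.17 with adjusted p = 0.00216 without the 3. Breast over lung was -0.69 ± 0.19 without them, with adjusted p = 0.0128.

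Complex II, succinate dehydrogenase, links the citric acid cycle to the chain and is encoded wholly in the nucleus. Its catalytic pair, the flavoprotein Sdha and the iron-sulfur protein Sdhb, both stood higher in melanoma, with different libraries at the extremes. Their promoters, the 250 bases before the start of each gene, are shown because both genes were called. A further reason is that only 1 of them holds exact matches to a known motif. Near matches were not counted. Capitals mark matches, on either strand, to the core binding motif of the factor NRF1 with its middle base left free; the coordinates are of RefSeq's GRCm38.p6, Sdha at chr13:74350241-74350490 on the minus strand and Sdhb at chr4:140961021-140961270 on the plus strand.
Sdha: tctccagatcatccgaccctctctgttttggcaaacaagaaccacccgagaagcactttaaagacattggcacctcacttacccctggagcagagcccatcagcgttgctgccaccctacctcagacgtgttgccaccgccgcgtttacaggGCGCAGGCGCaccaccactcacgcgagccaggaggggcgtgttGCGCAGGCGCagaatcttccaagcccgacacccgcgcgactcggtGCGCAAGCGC
Sdhb: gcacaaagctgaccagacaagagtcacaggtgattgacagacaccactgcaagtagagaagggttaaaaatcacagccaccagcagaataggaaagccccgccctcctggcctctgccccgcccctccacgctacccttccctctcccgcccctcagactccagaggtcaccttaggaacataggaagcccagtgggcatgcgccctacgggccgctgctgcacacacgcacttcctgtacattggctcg
The Sdha window holds 3 matches and the Sdhb window none. Of 65 respiratory chain genes with a promoter in that table, 14 held this motif (21.5%), against 4.23% of 27025 genes. The ETS-family motif CCGGAAG was in 16.9% of the 65, against 7.83% of all genes, and the YY1 motif in 1.54%, against 0.359%. At least 1 of these motifs was in 33.8% of the 65 and 11.6% of all genes. The NRF1 motif with that base fixed, whose matches are also matches of the free form, was in 6.15%, against 0.877%. These are matches of letters and no measurement of binding.

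Sdhb (ENSMUSG00000009863.15) had 198, 280 and 636 CPM as lowest, median and highest value in melanoma, 158, 171 and 253 in breast and 142, 182 and 207 in lung. Melanoma replicates 1, 2 and 3, at 353, 333 and 636 CPM, were above every other library, while the other melanoma libraries, at 198 to 228 CPM, overlapped the breast and lung values. The same 3 brains had the most melanocyte-lineage RNA, and its part in the Sdhb level was not tested. The log2 fold change was 0.88 ± 0.25 for melanoma over lung (edgeR adjusted p = 0.0121) and 0.75 ± 0.25 for melanoma over breast (adjusted p = 0.0275). Without the 3 libraries it was 0.59 and 0.73, and both remained called. The call against breast was lost without breast 14, 15, 16 or 17.

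Sdha (ENSMUSG00000021577.15) had 357, 540 and 560 CPM as lowest, median and highest value in melanoma, 276, 384 and 431 in breast and 339, 416 and 466 in lung. The lowest melanoma value was replicate 3, while the other 5 melanoma libraries, at 518 to 560 CPM, were above every breast and lung library. Melanoma over breast was 0.45 ± 0.13 on the log2 scale (edgeR adjusted p = 0.0119). Melanoma over lung was 0.33 ± 0.13 (adjusted p = 0.075), and 0.42 ± 0.09 (adjusted p = 0.00146) without the 3 libraries, a call also made by leaving out melanoma 3 or breast 18 alone. With a transcript of 2900 bases, Sdha is the longest of the genes, and it was low in each of the 3 libraries poor in long transcripts: its log2 ratio to the median of the model's other libraries was -0.63 in melanoma 3, -0.57 in breast 18 and -0.26 in breast 19. Sdhb, at 1142 bases, had ratios of 1.48, 0.59 and 0.63 in the same order. The next longest genes after Sdha were not low there. Ndufs1, at 2590 bases, had 0.49, 0.02 and 0.10, and Atp5f1a, at 2471 bases, 0.64, 0.01 and 0.14. The membrane anchors Sdhc and Sdhd were not called in the uncorrected fit of 18 libraries. In the fit without the 3 libraries Sdhc was lower for breast over lung, at -0.27 ± 0.09 (edgeR adjusted p = 0.0326), and Sdhd was higher for melanoma over breast, at 0.50 ± 0.17 (edgeR adjusted p = 0.0342). Removing the length trend called Sdhc for melanoma over breast, and the slope covariate called both genes in all 3 comparisons. Sdhd averaged 189 ± 90.9 CPM in melanoma, 146 ± 50.4 in breast and 149 ± 27.8 in lung.

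**Figure D4:**
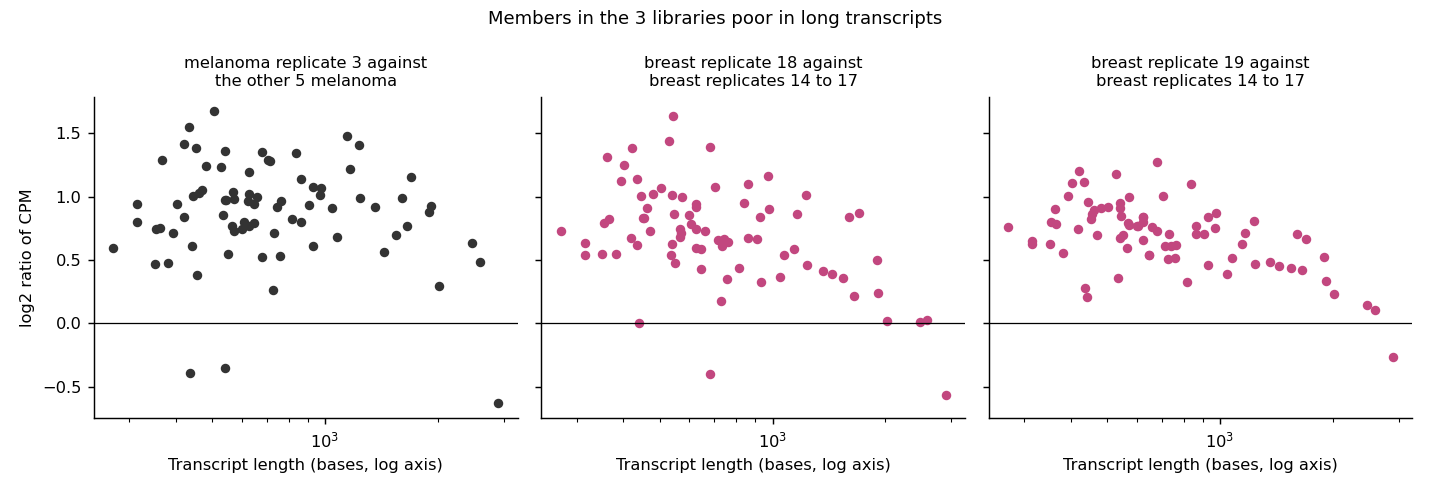
log2 ratio of each gene's CPM (y axis) in melanoma 3 (to the median of the other 5 melanoma libraries), breast 18 and breast 19 (each to the median of breast 14 to 17), against transcript length in bases (x axis, log scale). Most points lie above 0; Sdha, the longest at 2900 bases, lies below 0 in all 3 panels.

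In melanoma 3, breast 18 and breast 19 the rise was shared by most of the genes. Genes under 1 kb had a median log2 ratio of 0.94 in melanoma 3, 0.75 in breast 18 and 0.77 in breast 19. The 10 genes of 1.5 kb or more had 0.73, 0.23 and 0.38 in the same order. Melanoma 3 was the highest of its model for 74 of 78 genes, breast 18 for 39 and breast 19 for 37.

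Complex III passes electrons from ubiquinol to cytochrome c. In the uncorrected fit of 18 libraries edgeR called none of its 8 genes, none had an unadjusted p below 0.05, and DESeq2 and limma-voom called 0. The calls depended on the correction for length. With the trend removed edgeR called 2 for melanoma over lung, 0 for breast over lung and 3 for melanoma over breast. Of all genes, 26.1%, 22.6% and 33.8% were called in that fit. With the slope covariate it called 5, 1 and 7, where 38.6%, 32.9% and 41.6% of all genes were called. Uqcrc1, a core subunit, averaged 382 ± 91.3 CPM in melanoma, 332 ± 48.3 in breast and 339 ± 28.3 in lung. Uqcrfs1, the Rieske iron-sulfur protein, averaged 170 ± 53.0, 147 ± 24.7 and 154 ± 19.6 CPM in the same order. Of all genes 13.3% were lower for breast over lung without the 3 libraries, and of the 8 complex III genes 3 were. One was Uqcrc2, a core subunit, with -0.40 ± 0.09 on the log2 scale (edgeR adjusted p = 0.00406), and the same gene was higher for melanoma over breast, at 0.28 ± 0.09 (adjusted p = 0.0293).

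Complex IV, cytochrome c oxidase, reduces oxygen. Its gene Cox7b2, an isoform of Cox7b known from human testis, was the 1 gene called for breast over lung. Its promoter on chromosome 5, at chr5:71548206-71548455 on the minus strand of GRCm38.p6, is shown because it is the gene with the largest difference, and it holds none of the motifs above.
Cox7b2: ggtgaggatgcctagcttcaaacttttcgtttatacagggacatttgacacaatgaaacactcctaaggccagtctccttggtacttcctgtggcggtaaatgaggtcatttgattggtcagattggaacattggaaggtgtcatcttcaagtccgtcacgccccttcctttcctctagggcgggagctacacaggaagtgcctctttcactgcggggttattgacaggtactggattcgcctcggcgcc
Cox7b2 (ENSMUSG00000049387.11) had 0.186, 0.340 and 0.826 CPM as lowest, median and highest value in melanoma, 6.06, 17.3 and 40.1 in breast and 0.0778, 0.268 and 0.572 in lung. The melanoma libraries held 2 to 10 reads of it each, the breast libraries 77 to 287 and the lung libraries 1 to 7, and every breast value was above all others. The log2 fold change was 6.02 ± 0.52 for breast over lung (edgeR adjusted p = 6.25e-08) and -5.34 ± 0.49 for melanoma over breast (adjusted p = 8.97e-08). These were 5.41 ± 0.43 and -4.59 ± 0.43 without the 3 libraries. Even in breast libraries its median of 17.3 CPM was far under that of Cox8a, a ubiquitous subunit gene of like length with 275 CPM there.

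**Figure D5:**
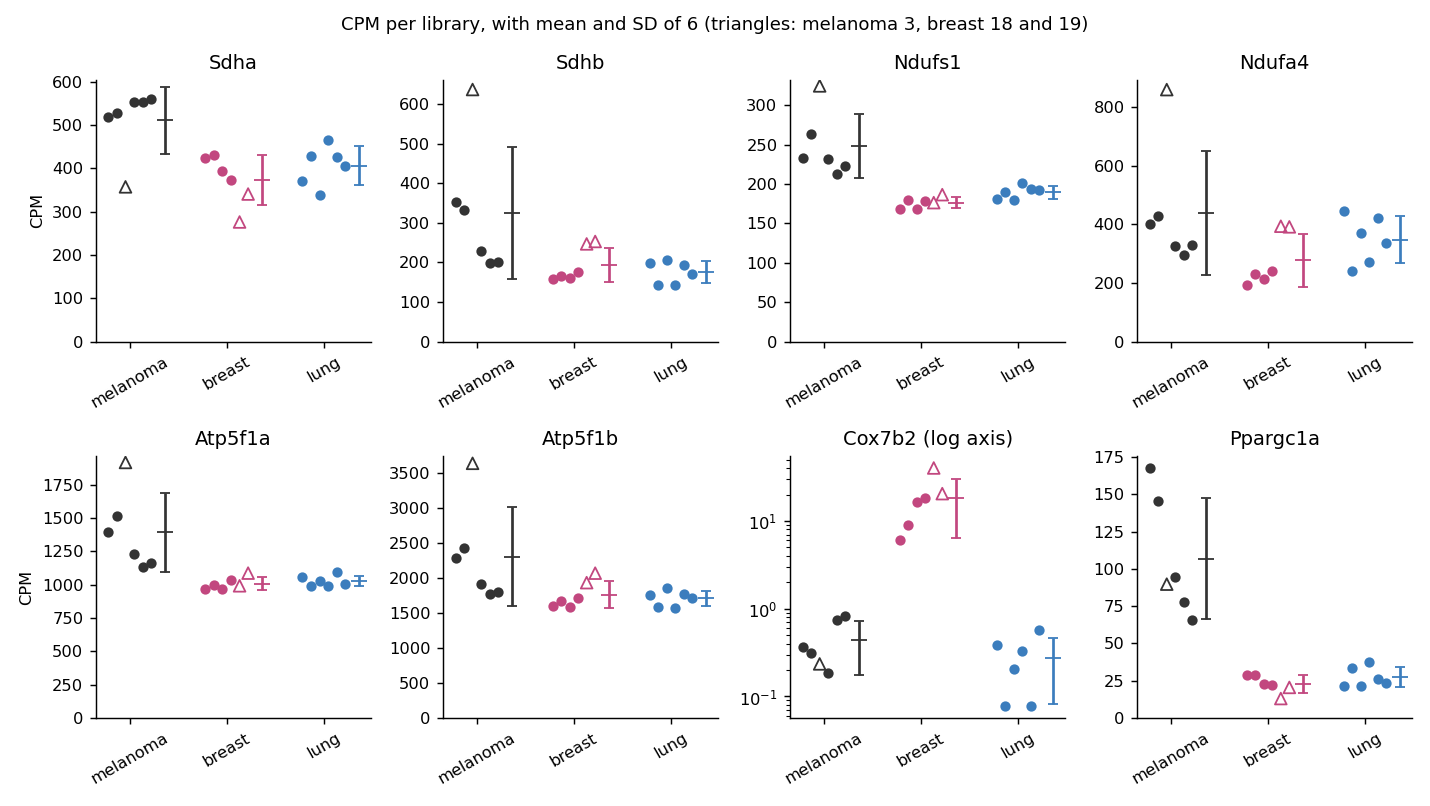
CPM per library (y axes; log axis for Cox7b2) of 7 respiratory chain genes and the regulator Ppargc1a in melanoma, breast and lung, with mean and SD of 6 beside the points and triangles for melanoma 3, breast 18 and breast 19. Sdha in melanoma 3 lies at 357 CPM below the other melanoma points; Cox7b2 reads are at 6.06 to 40.1 CPM in breast alone.

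The other complex IV genes were not called by edgeR in the uncorrected fit of 18 libraries. Of the 15 tested, the fit with the trend removed called 1 for melanoma over lung, 3 for breast over lung and 6 for melanoma over breast. Of all genes, 26.1%, 22.6% and 33.8% were called in that fit. The fit with the slope covariate called 5, 8 and 10, where 38.6%, 32.9% and 41.6% of all genes were called. These counts include Cox7b2 where it was called. Ndufa4, a subunit abundant in brain, had 296, 365 and 859 CPM as lowest, median and highest value in melanoma, 192, 236 and 393 in breast and 240, 353 and 445 in lung. Melanoma over breast was 0.67 ± 0.26 (edgeR adjusted p = 0.0614), a difference that DESeq2 called, and 0.77 ± 0.17 (adjusted p = 0.0025) without the 3 libraries. Breast over lung was -0.72 ± 0.17 (adjusted p = 0.00453) without them and -0.33 ± 0.26 (adjusted p = 0.445) with them. Cox5a, a subunit on the matrix side of the enzyme, averaged 248 ± 62.9 CPM in melanoma, 204 ± 39.0 in breast and 237 ± 43.3 in lung. Of all genes 13.3% were lower for breast over lung without the 3 libraries, and of those under 1.5 kb 17.3%. Of the 15 complex IV genes tested 10 were lower there. Among those were Cox6a1, at -0.43 ± 0.12, and Cox6b1, at -0.51 ± 0.13. The isoforms Cox4i2, Cox6a2, Cox6b2 and Cox7a1 stayed between 1.30 and 8.87 CPM in every library.

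Complex V makes ATP from the proton gradient. The genes of its catalytic head, Atp5f1a (alpha) and Atp5f1b (beta), were both higher in melanoma. Atp5f1a had 1133, 1311 and 1915 CPM as lowest, median and highest value in melanoma, 965, 995 and 1086 in breast and 989, 1015 and 1092 in lung. Every melanoma library was above every breast and lung library. Melanoma over lung was 0.44 ± 0.11 on the log2 scale (edgeR adjusted p = 0.00722) and melanoma over breast 0.47 ± 0.11 (adjusted p = 0.00378). Both calls held without the 3 libraries, at 0.33 ± 0.09 (edgeR adjusted p = 0.00693) and 0.44 ± 0.10 (edgeR adjusted p = 0.00207). Of the 78 genes, Ndufs1 and Atp5f1a were the 2 whose melanoma and lung values did not overlap, against 14.3% of all genes in either direction.

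Atp5f1b had 1775, 2104 and 3643 CPM as lowest, median and highest value in melanoma, 1587, 1694 and 2072 in breast and 1580, 1740 and 1853 in lung. Melanoma replicates 1 to 4, at 2287, 2434, 3643 and 1921 CPM, were above every lung library, and replicates 5 and 6 overlapped them. Melanoma over lung was 0.43 ± 0.15 (edgeR adjusted p = 0.0436), a call that was lost in 13 of the 18 fits that left out 1 library, namely each lung library, melanoma 1, 2 or 3 and breast 14, 15, 16 or 17, with adjusted p up to 0.0985 over all alternatives. Melanoma over breast was 0.39 ± 0.15 (adjusted p = 0.0602). Leaving out the 3 libraries, Atp5f1b had 0.26 ± 0.10 for melanoma over lung (edgeR adjusted p = 0.0453) and 0.38 ± 0.11 for melanoma over breast (edgeR adjusted p = 0.0123). Atp5if1, the inhibitor of ATP hydrolysis by the enzyme, averaged 218 ± 79.8 CPM in melanoma, 198 ± 69.2 in breast and 225 ± 45.1 in lung. Its breast over lung change was -0.19 ± 0.23 with all libraries and -0.61 ± 0.13 without the 3 (edgeR adjusted p = 0.00283). Atp5mc3, a gene of the membrane c-ring, had -0.37 ± 0.23 and -0.67 ± 0.16 (adjusted p = 0.00501).

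None of the subunits encoded by mitochondrial DNA was called. Of 13 genes 7 could be tested, and edgeR, DESeq2 and limma-voom called 0 in each comparison, with 0 at unadjusted p below 0.05. edgeR also called 0 without the 3 libraries. mt-Co1 averaged 5152 ± 1389 CPM in melanoma, 4773 ± 695 in breast and 4910 ± 935 in lung. mt-Co3, mt-Atp6 and mt-Atp8 are listed at 0 in all libraries.

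Among genes of linked pathways, the regulator Ppargc1a and part of the citric acid cycle genes were called higher in melanoma. Of 14 cycle genes edgeR called 8 higher for melanoma over lung, where 8.51% of all genes were higher, and 7 for melanoma over breast, where 9.76% were, and 0 for breast over lung, where 2 had an unadjusted p below 0.05 and DESeq2 and limma-voom called 0. The median log2 fold change of the 14 was 0.33, 0.27 and -0.03 in those comparisons. Without the 3 libraries 6 were higher for melanoma over lung, where 13.6% of all genes were. In that fit 8 were higher for melanoma over breast, where 2605 of 17402 genes were. It called 3 lower for breast over lung, where 13.3% of all genes were lower. The 14 genes summed to 3711, 3964 and 4678 CPM in melanoma replicates 1, 2 and 3, the richest in melanocyte-lineage RNA, and to 3208 to 3347 in melanoma 4 to 6, and the part of that RNA was not tested. Ogdh, the first subunit of the 2-oxoglutarate dehydrogenase complex, averaged 400 ± 61.8 CPM in melanoma, 237 ± 45.4 in breast and 255 ± 28.9 in lung. Suclg2, a succinyl-CoA ligase subunit one step before succinate dehydrogenase, averaged 54.2 ± 23.0, 27.9 ± 4.8 and 21.8 ± 2.9 CPM in the same order. Ppargc1a, a coactivator that drives mitochondrial biogenesis, averaged 107 ± 40.4 CPM in melanoma, 22.7 ± 5.9 in breast and 27.3 ± 6.8 in lung. All melanoma libraries were above all others, and melanoma over lung was 1.97 ± 0.24 on the log2 scale and melanoma over breast 2.23 ± 0.25. Leaving out the 3 libraries gave 2.02 ± 0.23 and 2.17 ± 0.27. Ppargc1a was highest in melanoma 1 and 2, at 168 and 145 CPM, 2 of the 3 libraries richest in melanocyte-lineage RNA. It was lower in melanoma 3, the richest of all. The part of that RNA in the Ppargc1a level was not tested. Of 15 biogenesis regulators 3 were higher and 1 lower for melanoma over lung, where 8.51% of all genes were higher and 14.7% lower, and 3 were higher for melanoma over breast, where 9.76% of all genes were. In the fit without the 3 libraries 6 were higher and 1 lower for melanoma over lung. Of all genes 13.6% were higher there and 3478 of 17402 lower. Breast over lung had 3 higher and 2 lower, where 11.7% of all genes were higher and 13.3% lower. Melanoma over breast had 5 higher and 1 lower, where 2605 of 17402 genes were higher and 19.3% lower. Cycs, cytochrome c, was higher in melanoma than in breast by 0.67 ± 0.16 and than in lung by 0.45 ± 0.15. These were 0.73 ± 0.14 and 0.33 ± 0.13 without the 3 libraries, and the call against lung was lost (edgeR adjusted p = 0.054).

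Of 46 assembly factors, 43 were tested. For melanoma over lung 7 were higher, Cox11, Cox10 and Taco1 first, and 2 lower, Uqcc3 and Cox18, where 8.51% of all genes were higher and 14.7% lower. For breast over lung 4 were higher, among them Nubpl and Foxred1, which serve complex I, and 2 lower, Ndufaf1 and Surf1, where 11.2% of all genes were higher and 7.16% lower. For melanoma over breast 4 were higher, where 9.76% of all genes were. Without the 3 libraries the counts were 8 higher and 9 lower for melanoma over lung. Of all genes 13.6% were higher there and 3478 of 17402 lower. Breast over lung had 3 higher and 13 lower, where 11.7% of all genes were higher and 13.3% lower. Melanoma over breast had 14 higher and 1 lower, where 2605 of 17402 genes were higher and 19.3% lower. Foxred1 averaged 76.4 ± 18.8 CPM in breast and 39.5 ± 4.0 in lung, a log2 fold change of 0.95 ± 0.22 (edgeR adjusted p = 0.004), and 0.73 ± 0.14 without the 3 libraries.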

How the data were processed

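Poly(A)+ RNA was converted to strand-specific libraries from 1 µg of total RNA, per the labels' protocols, and reads were demultiplexed with bcl2fastq and mapped against GRCm39, per the submitters' processing notes; the aligner, the counting tool and its strand setting are not stated there or in the labels. The authors deposited a table of raw counts per gene and an annotated matrix of CPM values. The deposited CPM are whole reads scaled per library: 100% of values came out whole within 0.01, and edgeR on those reads called 3469, 2719 and 4448 of 13816 genes for melanoma over lung, breast over lung and melanoma over breast. The 81 members were found in the CPM matrix and matched to the count table, 63 by symbol and 17 by identical reads (15 of these also by a RefSeq synonym); 1 was not matched. Their Ensembl IDs were named from GENCODE M21, as 52083 of 55416 IDs were.

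Main values are CPM on TMM-scaled library sizes. Tests used edgeR 4.0.16 (robust quasi-likelihood, filterByExpr, 17174 genes, 1 coefficient per model, 18 libraries, R 4.3.3) on the deposited counts, and p-values were adjusted over the whole table by Benjamini-Hochberg; DESeq2 1.42.0 and limma 3.58.1 were alternatives. The script was tested on simulated data. Each library is 1 brain, so p-values cover the spread between brains. Named genes were the up to 3 called members of each complex and comparison with the smallest p, the largest rise and fall per comparison, and a list of core and tissue-restricted genes; Sdhc, Sdhd, Uqcrc2, Cox6a1, Cox6b1, Cox8a and mt-Co1 were added after their values were seen. Transcript length is the lower median over protein-coding basic transcripts. The members, lists and the 3 libraries left out were chosen with earlier results of these data known. Promoters are from RefSeq, GRCm38.p6; no coordinates were converted. Lists of other cell types were astrocytes, oligodendrocytes, microglia and macrophages, endothelium, mural cells, choroid plexus and ependyma, muscle, epithelium, parvalbumin interneurons and cell cycle. A member that the naming rule includes is not reported here.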

Additional observations from a re-analysis of the deposited data

Results flagged for a closer look

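In a group of 6 libraries, a value was listed here when its gap to the nearest other library exceeded Dixon's 95% limit for its share of the group's range; chance alone lists about 1 in 20 groups, and 75 groups were examined. All 13 values listed are of melanoma replicate 3, the library of that model with the lowest slope of CPM with transcript length and the most melanocyte-lineage RNA. In complex I, Ndufv1 was at 310 CPM there, where the other 5 libraries of that model had 202 to 225, and Ndufa7 at 176, against 66.4 to 85.7. Sdha was the 1 gene that was low, at 357 CPM against 518 to 560, while Sdhb was high, at 636 against 198 to 353. Uqcrfs1 was at 276 CPM, against 134 to 169. Ndufa4 was at 859 CPM, against 296 to 428. In complex V, Atp5f1b was at 3643 CPM, against 1775 to 2434, Atp5if1 at 378, against 164 to 203, and Atp5mc3 at 940, against 330 to 513. The summed CPM was 6625 for complex I, against 3426 to 4089, 2963 for complex III, against 1320 to 1697, 3735 for complex IV, against 1849 to 2301, and 10221 for complex V, against 4888 to 6572.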

How the results depend on the processing

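The number of members called moved with how the 3 libraries poor in long transcripts were handled. Without them it was 12 for melanoma against lung and 42 for breast against lung, beside 33.6% and 25.0% of all genes called. It was 26 for melanoma against breast and 45 for any difference, beside 34.2% and 48.1%. With the trend over transcript length removed it was 14, 7, 35 and 29, beside 26.1%, 22.6%, 33.8% and 41.5% of all genes called. With the length slope as a covariate it was 37, 35, 59 and 60, beside 38.6%, 32.9%, 41.6% and 55.4% of all genes. The 18 libraries without correction gave 4, 1, 7 and 6, beside 23.2%, 18.3%, 28.9% and 35.8%. The cause was not tested. With the libraries of melanoma and breast alone the count for that comparison was 4. Leaving out 1 library at a time gave 3 to 5 for melanoma against lung, 1 for breast against lung, 4 to 10 for melanoma against breast and 5 to 8 for any difference; without breast 14, 16 or 17 melanoma against breast had 4. The median log2 fold changes ranged from -0.11 to 0.21, from -0.19 to 0.01 and from -0.03 to 0.30 over those fits. Of the values of single genes recomputed under the alternatives, 474 stayed on their side of the threshold, 48 crossed to called, 36 lost the call and 0 changed direction. All were of differences called with 18 libraries without correction or in at least 1 alternative, so a kept direction was likely beforehand. Named genes such as Ndufv1 and Uqcrc1 were not among them. No paired analysis was possible because the library numbers are not shared between models. Genes listed at 0 or with reads shared with other genes limit what can be said of those members.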

Other observations

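Markers of other cell types differed between the models in ways the respiratory chain counts do not show. The 8 microglia and macrophage genes summed to a median of 283 CPM in melanoma, 947 in breast and 1092 in lung libraries, and no melanoma library, at 196 to 379 CPM, reached the others, which were at 733 or more. The 8 astrocyte genes were also lower in melanoma, with medians of 2958, 4809 and 4944 CPM in the same order, and the melanoma range of 2371 to 3621 lay below the others. The 6 endothelial genes had medians of 213, 273 and 253 CPM.

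Other lists overlapped between models or marked single models. The oligodendrocyte sums had medians of 4972 CPM in melanoma, 5816 in breast and 5500 in lung, mural cells 150, 121 and 140, choroid plexus and ependyma 747, 445 and 615, and parvalbumin interneurons 827, 628 and 698. Epithelial genes summed to 5.41 CPM in melanoma, 107 in breast and 800.1 in lung libraries, and muscle genes to 11.4, 13.2 and 53.7. Cell cycle genes had medians of 842, 652 and 385 CPM, with the 3 highest melanoma sums, 1313, 1258 and 1139, in replicates 3, 1 and 2.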
